A study of Mus musculus with 4 samples.

Results

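The mitochondrial ribosomal protein genes are the nuclear genes named Mrpl or Mrps and a number, which code for proteins of the ribosome inside mitochondria. Membership was set by name alone, though the group was proposed with earlier results of these data known. Of the 19840 genes in the authors' deposited table, 77 carry such a symbol after their Ensembl identifiers were matched. They are 48 Mrpl and 29 Mrps genes, and no pseudogene was among them. All 77 had an adjusted p in that table. RNA was measured, not protein.

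The cells were naive mouse embryonic stem cells, pluripotent cells held in their ground state by 2i/LIF (inhibitors of 2 kinases plus the cytokine LIF). They were infected with a pLKO.1 lentivirus coding for a control hairpin (shCtrl, 2 libraries) or for one that targets the long noncoding RNA Lncenc1 (shLincenc1, 2 libraries), and both groups were selected with puromycin for 2 days. The labels name 2 cell lines, E14TG2a and R1, and 2 hairpins designed per gene, without tying a library to a line or a hairpin, and do not state whether a group's libraries were separate cultures; p-values then measure only the spread between libraries, which may be technical. The table holds a mean over all 4 libraries and a fold change between the groups, and does not name the numerator. The groups are therefore called here by their level of Lncenc1, the targeted RNA: reads per library, recovered from the deposited means and divided by the authors' size factors ("normalized reads" below), were 6400 and 7250 in the libraries H1 and H2 and 2126 and 2121 in L1 and L2. The authors' deposited table gives Lncenc1 a log2 fold change of 1.68 ± 0.19 (SE; DESeq2 adjusted p = 2.67e-16), with Lncenc1-high (H1, H2) over Lncenc1-low (L1, L2), and every fold change below has that direction.

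Mitochondrial ribosomes translate the few mRNAs that mitochondrial DNA encodes, all of them for subunits of the respiratory chain and ATP synthase. Their RNA comes from mitochondrial DNA, and all of their proteins come from nuclear genes, are made in the cytosol and are imported. The small subunit binds the mRNA and reads its codons, and the large subunit forms the peptide bonds and releases the growing chain towards the inner membrane. Naive stem cells respire and also use glycolysis, and the series title ties Lncenc1 to glycolysis in these cells. Whether the RNA levels of the mitochondrial ribosome differed between the groups is the question addressed here.

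Promoter sequence is shown first, since nuclear respiratory factor 1 (NRF1), the ETS-family factor GABP and YY1 are known regulators of nuclear genes for mitochondrial proteins. RefSeq windows of GRCm38.p6, from 250 bases before to 50 bases after each gene's start, were matched by symbol for 68 of the 77 genes (74 windows); Mrpl13, Mrpl15, Mrpl19, Mrpl38, Mrpl4, Mrpl54, Mrps28, Mrps34 and Mrps35 had none. Below are the 100 bases before the start of 3 of the 4 genes with the smallest p (Mrps14, Mrpl45 and Mrpl20), then of 3 genes as examples of a motif (Mrpl12, Mrps27 and Mrps18a). The last line is the 41 bases between the starts of Mrpl46 and Mrps11, which are read away from each other. All are on the + strand, 5′ to 3′. Capitals mark a match, on either strand, to the NRF1 motif (GCGC, any base, TGCGC), the ETS motif CCGGAAG or the E-box CACGTG. The NRF1 match in Mrpl45, beginning 38 bases before the start, fits the motif's reverse complement, and that in Mrpl12 begins 81 before. The ETS match in Mrps27, 48 before, is also a reverse complement, and that in Mrps18a begins 26 before. The E-box in Mrpl20 begins 33 before. Neither the Mrps14 stretch nor the one between Mrpl46 and Mrps11 held any motif searched.
Mrps14, chr1:160195115-160195214: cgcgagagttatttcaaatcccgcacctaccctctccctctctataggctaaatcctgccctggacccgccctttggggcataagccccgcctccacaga
Mrpl45, chr11:97315616-97315715: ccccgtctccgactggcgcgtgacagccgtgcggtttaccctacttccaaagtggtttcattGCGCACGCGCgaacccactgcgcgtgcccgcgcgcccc
Mrpl20, chr4:155802778-155802877: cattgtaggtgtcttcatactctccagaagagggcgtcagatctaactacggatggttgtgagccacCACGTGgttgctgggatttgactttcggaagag
Mrpl12, chr11:120484537-120484636: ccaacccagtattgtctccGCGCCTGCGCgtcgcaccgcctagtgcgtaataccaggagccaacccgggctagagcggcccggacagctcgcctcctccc
Mrps27, chr13:99344686-99344785: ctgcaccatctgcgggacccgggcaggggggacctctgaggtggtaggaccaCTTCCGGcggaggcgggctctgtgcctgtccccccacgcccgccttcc
Mrps18a, chr17:46110904-46111003: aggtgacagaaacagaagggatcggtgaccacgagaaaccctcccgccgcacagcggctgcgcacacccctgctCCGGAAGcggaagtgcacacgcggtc
Mrpl46 to Mrps11, chr7:78783090-78783130: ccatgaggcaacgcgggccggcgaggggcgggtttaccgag

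Both strands were searched, and a match is a description of the letters only. The ETS motif stood in 25 of the 74 windows (33.8%, against 8.86% of all 32851 windows and 11.6% of those of protein-coding genes). The NRF1 motif stood in 13 windows (17.6%, against 4.60% and 6.38%), and the YY1 motif ATGGCGGC in 11 (14.9%, against 2.24% and 3.01%). The E-box, the core motif bound by MYC and related factors, stood in 7 windows (9.46%, against 7.15% and 7.84%) and the TATA motif TATAAA in 5 (6.76%, against 13.6% and 12.6%). The 7 E-box windows belonged to 5 of the 68 genes, beside 2187 of 27025 genes and 1559 of 17491 protein-coding ones. Counted by gene, the E-box was thus not more common here. These windows were richer in G and C than most, with a median of 58.5% against 52.7% in all windows and 56.3% in protein-coding ones. The ETS and NRF1 motifs shared 4 windows, and 40 windows had neither. Of the 16 NRF1 matches 13 began before the start, whereas 10 of the 11 YY1 matches began at or after it, at a median of 17 bases.

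Median fold changes with and without each motif are given as a description, and the differences were not tested. In the authors' deposited table the median log2 fold change was -0.04 for the 13 genes with an NRF1 match and 0.00 for the 55 without. It was -0.08 for the 25 genes with an ETS match and 0.04 for the 43 without, and 0.04 and -0.02 for the 11 with and 57 without a YY1 match. The 5 genes with an E-box had a median of 0.08 and the other 63 one of 0.00. The TATA motif gave the widest gap of the 5 motifs, with -0.13 for its 5 genes and 0.00 for the other 63. Mrpl45, with an NRF1 match, and Mrpl44, with another, had deposited log2 fold changes of 0.56 and -0.09.

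Most mitochondrial ribosomal protein RNAs stayed within narrow limits between the groups. Only 1 of the 77 passed the test: Mrpl19 was lower in Lncenc1-high libraries. In the authors' deposited table the median log2 fold change was -0.02, with 35 genes above 0 and 42 below, beside a median of -0.01 over all 14070 genes tested. Summed over the 77 genes, normalized reads were 53270 and 52755 in Lncenc1-high and 55112 and 51989 in Lncenc1-low libraries, so that the groups overlapped, and the ratio of the group means was 0.990. In bulk RNA such as this, fewer cells of a type and less RNA per cell cannot be told apart.

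The count of calls was near the background. At a DESeq2 adjusted p under 0.05, 1.30% of the 77 genes were called, against 1.53% of all genes tested in the authors' deposited table (1.02% higher in Lncenc1-low, the direction of Mrpl19, and 0.505% higher in Lncenc1-high) and 1.63% of those in the members' range of means. At an unadjusted p under 0.05, 4 genes (5.19%) passed, Mrps14 and Mrpl45 higher and Mrpl19 and Mrpl20 lower in Lncenc1-high, against 8.82% of all genes (3.54% higher and 5.28% lower in Lncenc1-high) and 9.35% of those in the same range of means.

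The fold changes were also close together and held within limits that can be stated. The middle 50% of the 77 deposited log2 fold changes lay between -0.14 and 0.08, beside -0.26 and 0.23 for all genes tested. Their median size, without sign, was 0.12, beside 0.24 for all genes and 0.20 for the 9065 genes in the same range of means. For 71 of the 77 genes (92.2%) the 95% interval of the fold change, made from the deposited standard error, lay within 2-fold either way, beside 54.0% of all genes and 69.8% of those in that range of means. A change of 1.5-fold lay outside the interval of 33 genes (42.9%, beside 19.0% and 20.3%). Such limits were not particular to the 77 genes. The 2-fold share was 92.5% for nuclear genes of the respiratory chain and ATP synthase and 96.4% for cytosolic ribosomal protein genes. Their 1.5-fold shares were 48.8% and 30.1%. These shares also depend on precision, which was not matched. The median standard error was 0.250 for the 77 genes, 0.322 for all genes and 0.283 for those in that range of means. The 6 genes whose interval reached 2-fold were Mrpl19, Mrpl33, Mrpl45, Mrps14, Mrps36 and Mrps6.

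**Figure D1:**
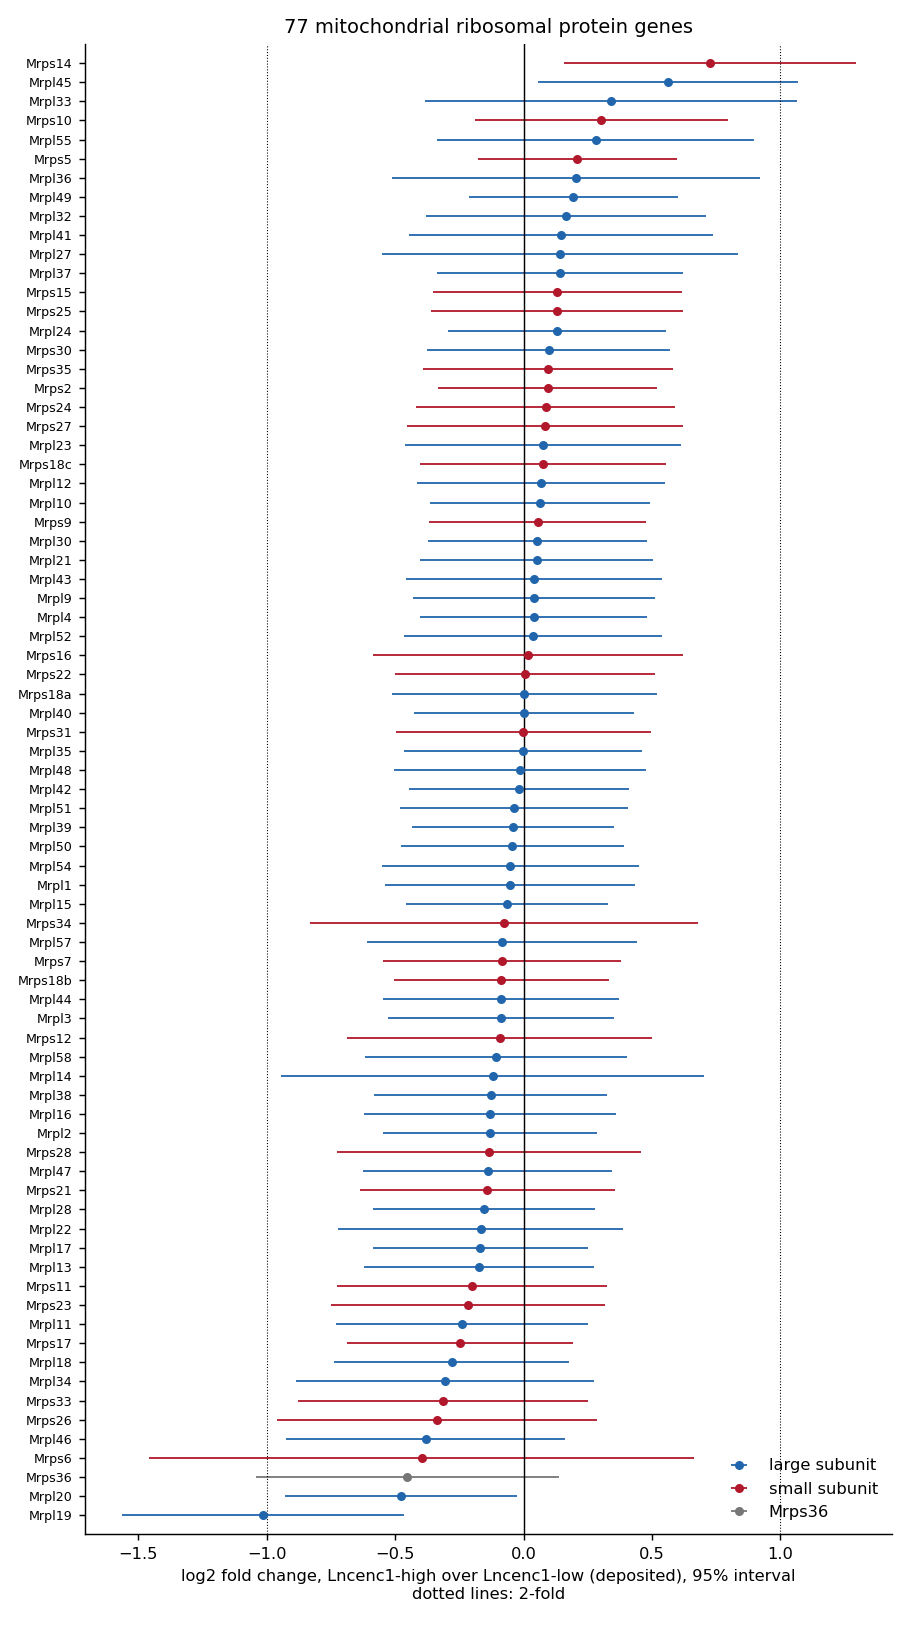
Deposited log2 fold change (x axis, Lncenc1-high over Lncenc1-low) of each of the 77 genes (y axis, in order), with 95% intervals as bars, coloured by the subunit in which the protein sits; dotted lines mark 2-fold. Most intervals cross 0, and 71 of 77 lie between the dotted lines, while those of Mrpl19 and Mrpl20 at the bottom lie wholly below 0 and those of Mrps14 and Mrpl45 at the top wholly above it.

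Mrpl19 codes for a large-subunit protein whose bacterial counterpart lies at the interface of the subunits. It had 377 and 266 normalized reads in Lncenc1-high libraries and 699 and 607 in Lncenc1-low ones. Both Lncenc1-low libraries lay above both Lncenc1-high ones, and the lower of them was above the higher Lncenc1-high library by more than either group's own gap. The authors' deposited table gives a log2 fold change of -1.01 ± 0.28 (SE; DESeq2 adjusted p = 0.0280). This call ended in each refit without 1 library, where adjusted p (negative binomial Wald refit) was 0.0526 with H1 left out, 0.587 with H2 left out, 0.210 with L1 left out and 0.158 with L2 left out. It also ended in limma voom, where adjusted p was 0.239, and the log2 fold change was between -1.30 and -0.79 in all 5 fits. Of all genes these fits called fewer than the deposited one did: 0.393%, 0.556%, 1.39% and 0.342% in the refits, in the same order, and 0.0427% in limma voom. The call held with library totals in place of size factors (1.69% of genes called), with every gene in the adjustment (0.897%) and at an adjusted p under 0.1 (2.14%). In the annotation used here 1962 exon bases of Mrpl19 lie opposite Gcfc2, whose deposited log2 fold change was -0.18 ± 0.24. The library kit keeps strand, with the counting's strand setting not given in the sources used here.

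Mrpl20, whose bacterial counterpart binds the large ribosomal RNA early in assembly, had 632 and 706 normalized reads in Lncenc1-high and 977 and 882 in Lncenc1-low libraries. The groups did not overlap, with the Lncenc1-low libraries higher. In the authors' deposited table its log2 fold change was -0.48 ± 0.23 (DESeq2 unadjusted p = 0.0382, adjusted p = 0.515), so it did not pass.

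Mrpl45 codes for a protein at the exit of the peptide tunnel, where the mitochondrial ribosome meets the inner membrane. Its normalized reads were 1459 and 1350 in Lncenc1-high and 725 and 1178 in Lncenc1-low libraries. L1 stood far below the other 3 libraries. The authors' deposited table gives a log2 fold change of 0.56 ± 0.26 (DESeq2 unadjusted p = 0.0290, adjusted p = 0.454), and the refit without L1 gave 0.25, the refit without L2 0.96.

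Mrps14, a protein of the head of the small subunit, had 451 and 428 normalized reads in Lncenc1-high and 237 and 295 in Lncenc1-low libraries. Both Lncenc1-high libraries were higher, and each pair was close. Its log2 fold change in the authors' deposited table, 0.73 ± 0.29, was the highest of the 77 (DESeq2 unadjusted p = 0.0123, adjusted p = 0.288) and did not pass.

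**Figure D2:**
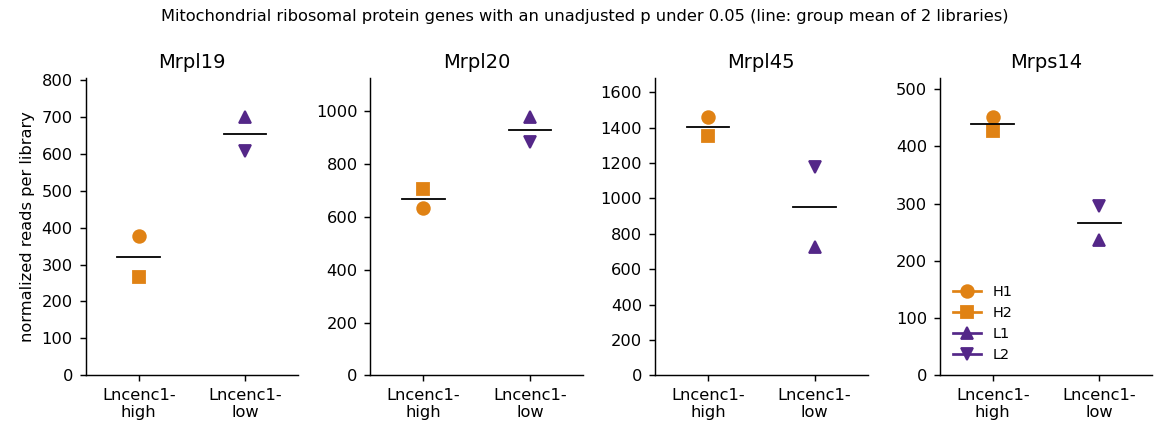
Normalized reads per library (y axis, from 0) of the 4 genes with an unadjusted p under 0.05, by group (x axis); each symbol is 1 library and each line the mean of the 2 libraries of a group. The groups do not overlap in any panel, and in Mrpl45 the libraries L1 (725) and L2 (1178) lie far apart.

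**Figure D3:**
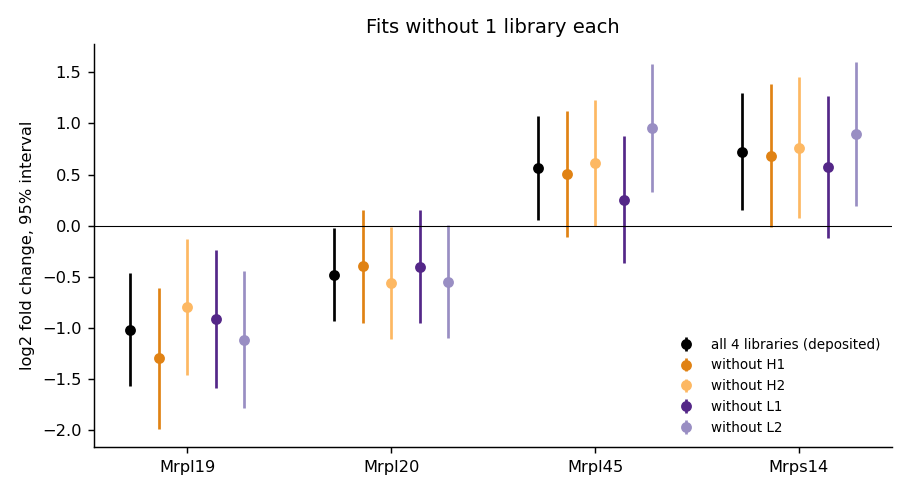
Log2 fold change (y axis, Lncenc1-high over Lncenc1-low) with 95% intervals of the same 4 genes in the deposited fit of all 4 libraries and in refits without 1 library each. All values keep their sign, Mrpl19 stays between -1.30 and -0.79, and Mrpl45 moves from 0.25 without L1 to 0.96 without L2.

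Groups that did not overlap were common among all genes. Of the 77 genes, 33 (42.9%) had libraries that did not overlap between the groups, against 41.3% of the 14053 tested genes with recovered reads. In 9 of the 77 both Lncenc1-high libraries were above, against 20.6% of those tested genes. In 24 of the 77 both Lncenc1-low libraries were above, against 20.7%. The 2 directions were thus nearly equal over all genes and unequal among the 77, and this difference was not tested. The median over the 77 genes of the log2 ratio to a gene's 4-library mean was -0.02 in H1, -0.03 in H2, 0.04 in L1 and -0.01 in L2, so the libraries differed by less than 0.1 on this scale. The share of all recovered reads that fell on the 77 genes was 0.385% in H1, 0.377% in H2, 0.395% in L1 and 0.391% in L2.

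**Figure D4:**
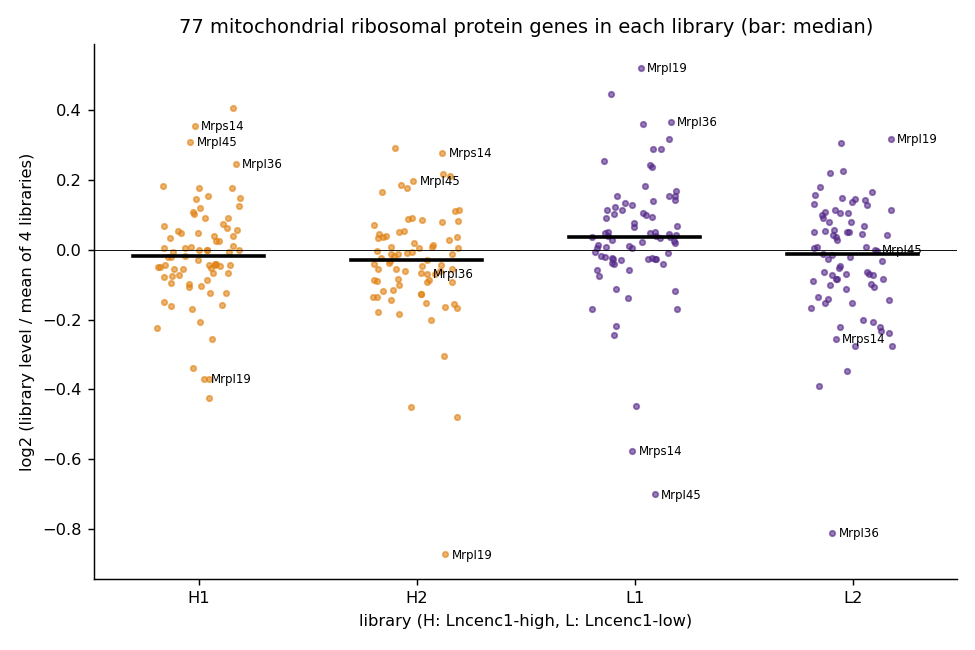
Log2 ratio of each gene's normalized reads in a library to its mean over the 4 libraries (y axis) for the 77 genes in each library (x axis); points are genes and bars are medians, which lie between -0.03 and 0.04. Mrpl19 is lowest in H2 and highest in L1, Mrpl45 is low in L1 alone, and Mrpl36 is lowest in L2.

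Some large gaps lay within a group instead. Mrpl36, a small zinc-binding protein of the large subunit picked out after its values were seen, had 495 normalized reads in L1 and 219 in L2. Mrps16, picked out in the same way, had 486 in L1 and 303 in L2. As a ratio, though not in reads, the 2 libraries of Lncenc1-low were further apart for Mrpl36 (2.26) than the groups were for Mrpl19 (2.02). The deposited log2 fold changes of Mrpl36 and Mrps16 were 0.21 and 0.02.

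The large subunit, by symbol, held 48 of the genes, with 20 above 0 and 28 below it in deposited log2 fold change, a median of -0.04 and Mrpl19 as its 1 call. The small subunit held 29, with 15 above 0 and 14 below, a median of 0.00 and no DESeq2 call. It had 1 unadjusted p under 0.05 (3.45%, against 8.82% of all genes tested), of Mrps14. Limma voom called 0 of the 29 and only 0.0427% of all genes. Symbol and place differ for some: Mrps30 and Mrps18a sit in the large subunit of the mammalian mitochondrial ribosome. Placed by structure, with Mrps36 left aside, the large subunit had 50 genes and a median of -0.03, and the small subunit 26 and a median of 0.00.

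Among the other genes at the high end, none passed the test. Mrpl33, a short protein of the large subunit, had 283 and 193 normalized reads in Lncenc1-high and 157 and 221 in Lncenc1-low libraries, which overlap. Mrps10, in the head of the small subunit, had 682 and 756 against 653 and 512. Mrpl55, a protein found in mitochondrial ribosomes and not in bacterial ones, had 266 and 335 against 235 and 258. Mrps10 and Mrpl55 were higher in both Lncenc1-high libraries, by little over the nearest Lncenc1-low library. Mrps5, a small-subunit protein with the highest mean of all 77 (2410 normalized reads), had 2566 and 2602 against 2428 and 2043. In the authors' deposited table the log2 fold changes of Mrpl33, Mrps10, Mrpl55 and Mrps5 were 0.34 ± 0.37, 0.30 ± 0.25, 0.28 ± 0.32 and 0.21 ± 0.20.

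At the low end the same held. Mrps36 carries a ribosomal name but its protein has been placed in the oxoglutarate dehydrogenase complex of the citric acid cycle, where it joins the subunits. It had 352 and 261 normalized reads in Lncenc1-high and 467 and 376 in Lncenc1-low libraries. Both Lncenc1-low libraries were above both Lncenc1-high ones, the nearest by a small gap. Mrps6, of the small subunit platform, had the lowest mean (72.4) and 54 and 72 against 99 and 66, which overlap. Mrpl46, a large-subunit protein without a bacterial counterpart, had 338 and 339 against 399 and 482. Mrps26, a small-subunit protein without one, had 210 and 223 against 261 and 285. Their deposited log2 fold changes were -0.45 ± 0.30 for Mrps36, -0.40 ± 0.54 for Mrps6, -0.38 ± 0.28 for Mrpl46 and -0.34 ± 0.32 for Mrps26, and none passed in the authors' deposited table (smallest DESeq2 adjusted p 0.783, of Mrps36). Mrps11, whose RefSeq start faces that of Mrpl46 across the 41 bases shown above while their merged GENCODE exons overlap by 173 bases on opposite strands, had a deposited log2 fold change of -0.20 ± 0.27.

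The stalk of the large subunit, which recruits translation factors, is formed by Mrpl12 on Mrpl10, beside Mrpl11. Mrpl12, which has also been reported to bind the mitochondrial RNA polymerase, had 760 and 610 normalized reads in Lncenc1-high and 680 and 629 in Lncenc1-low libraries, fully overlapping. Mrpl10 had 952 and 931 against 874 and 927, and Mrpl11 471 and 469 against 561 and 549. Mrpl11 was higher in both Lncenc1-low libraries, and its deposited log2 fold change was -0.24 ± 0.25, beside 0.07 ± 0.25 for Mrpl12 and 0.06 ± 0.22 for Mrpl10.

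Mrps12 lies at the decoding centre of the small subunit. It had 287 and 258 normalized reads in Lncenc1-high and 292 and 290 in Lncenc1-low libraries, and a deposited log2 fold change of -0.09 ± 0.30. Mammals have 3 relatives of bacterial S18. Mrps18a, of the large subunit, had 582 and 468 normalized reads in Lncenc1-high and 486 and 565 in Lncenc1-low libraries. Mrps18b and Mrps18c, of the small subunit, had 1347 and 1265 against 1515 and 1258, and 648 and 837 against 709 and 697. All 3 overlapped between the groups, with deposited log2 fold changes of 0.00 ± 0.26, -0.09 ± 0.21 and 0.08 ± 0.24 for Mrps18a, Mrps18b and Mrps18c.

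Members that resemble other enzyme or RNA-binding families gave no call. Mrpl44 resembles the nuclease RNase III and had 635 and 641 normalized reads in Lncenc1-high and 674 and 681 in Lncenc1-low libraries. Mrps27, a pentatricopeptide repeat protein, had 410 and 381 against 380 and 368. Mrpl58, which can free peptides from stalled ribosomes, had 735 and 785 against 985 and 653. Mrps30 had 802 and 741 against 803 and 640. The libraries of Mrpl44 and Mrps27 lay within a narrow band, while in Mrpl58 the Lncenc1-low libraries enclosed the Lncenc1-high ones. Deposited log2 fold changes were -0.09 ± 0.23 for Mrpl44, 0.08 ± 0.27 for Mrps27, -0.11 ± 0.26 for Mrpl58 and 0.10 ± 0.24 for Mrps30.

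Levels of different genes were compared here per kilobase of exon, with the lengths of all annotated exons merged (GENCODE M21). Means compared elsewhere, as for Mrps5, Mrps6 and Mycn, were not scaled by length. The mean per kilobase ran from 29.2 to 946 normalized reads, with a median of 255, beside a median of 71.5 over all genes tested. Mrpl2, which lies near the centre of peptide bond formation, was highest at 946, followed by Mrps21 at 698, Mrpl49 at 693, Mrpl24 and Mrps18c, both at 672. Mrpl33 was lowest at 29.2, followed by Mrps6 at 47.2, Mrps26 at 56.2, Mrps35 at 60.8 and Mrpl48 at 71.5. Most genes at the low end have long merged exons (7326 bases for Mrpl33, 8631 for Mrps35 and 8152 for Mrpl48), which lowers this measure where long variants are little used. Between the groups none of these 10 genes was called. Deposited log2 fold changes were -0.13 ± 0.21 for Mrpl2, -0.14 ± 0.25 for Mrps21, 0.19 ± 0.21 for Mrpl49, 0.13 ± 0.22 for Mrpl24, 0.10 ± 0.25 for Mrps35 and -0.01 ± 0.25 for Mrpl48. Those of Mrps18c, Mrpl33, Mrps6 and Mrps26 are given above, and the last 3 were among the 6 highest or the 6 lowest of all 77.

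The partners of the mitochondrial ribosome gave no call either. The 5 ribosomal proteins with other symbols (Dap3, Chchd1, Aurkaip1, Ptcd3 and Gadd45gip1) had a median deposited log2 fold change of -0.02, and 23 genes for ribosome assembly and RNA modification one of 0.04. The 15 translation factors and mRNA-binding partners had a median of 0.01, the 17 genes for mitochondrial DNA maintenance, transcription and RNA processing one of 0.03, and 20 tested genes of protein import one of -0.10. None of these genes was called at a DESeq2 adjusted p under 0.05 in the authors' deposited table, where 1.53% of all genes tested were. Limma voom called 0 in each list, but only 0.0427% of all genes, so its count says little about lists this short. A deposited unadjusted p under 0.05 was seen for 1 gene, Elac2 (5.88% of the 17 in its list, against 8.82% of all genes tested). Its protein trims the ends of mitochondrial and nuclear transfer RNA precursors. Elac2 had 1263 and 1334 normalized reads in Lncenc1-high and 2149 and 1507 in Lncenc1-low libraries. Its deposited log2 fold change was -0.49 ± 0.23 (DESeq2 unadjusted p = 0.0321, adjusted p = 0.476). The genes of smallest p in the other lists were Dap3 (0.27 ± 0.25), a GTP-binding protein of the small subunit, the assembly factor Mettl17 (-0.38 ± 0.29), the release factor Mtrf1 (0.74 ± 0.42) and the import channel subunit Timm17a (-0.24 ± 0.22), all as deposited log2 fold changes that did not pass.

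Of 9 tested regulators of mitochondrial gene expression, 0 were called by DESeq2 in the authors' deposited table (1.53% of all genes tested) or by limma voom (0.0427%). A deposited unadjusted p under 0.05 was seen for 1 of the 9 (11.1%, against 8.82% of all genes tested). Nrf1 and Gabpa had deposited log2 fold changes of 0.24 ± 0.20 and 0.13 ± 0.20, and Yy1 one of -0.08 ± 0.22. Myc, a regulator of ribosome synthesis, was low in all libraries, with 85.7 and 67.7 normalized reads in Lncenc1-high and 24.6 and 27.2 in Lncenc1-low ones. Both Lncenc1-high libraries were above both others, and the authors' deposited table gives a log2 fold change of 1.57 ± 0.63 (DESeq2 unadjusted p = 0.0125, adjusted p = 0.288). Mycn, given here as its relative in the same list, had a far higher mean, 2474 normalized reads. It had 3231 and 2296 in Lncenc1-high and 2688 and 1683 in Lncenc1-low libraries, which overlap. Its deposited log2 fold change was 0.34 ± 0.26 (DESeq2 adjusted p = 0.860).

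The mRNAs that the mitochondrial ribosome translates had a median deposited log2 fold change of 0.22 over 13 genes, 11 above 0. DESeq2 called 0 (1.53% of all genes tested), and limma voom called 0 of the 12 it tested (0.0427% of all genes). A deposited unadjusted p under 0.05 was seen for 2 of the 13 (15.4%, against 8.82% of all genes tested). mt-Atp8, for a subunit of ATP synthase, had 974 and 843 normalized reads in Lncenc1-high and 541 and 660 in Lncenc1-low libraries. mt-Nd6, the complex I subunit encoded on the other strand, had 863 and 652 against 1375 and 895. Both genes had groups that did not overlap, in opposite directions. In the authors' deposited table mt-Atp8 had a log2 fold change of 0.60 ± 0.24 (DESeq2 unadjusted p = 0.0131, adjusted p = 0.296) and mt-Nd6 one of -0.58 ± 0.27 (unadjusted p = 0.0310, adjusted p = 0.469). The library L2 was low in this group, at a median log2 ratio to the 4-library mean of -0.36, against 0.11, 0.10 and 0.09 in H1, H2 and L1. The ribosomal RNAs of the mitochondrion were not analysed here.

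Set beside the proteins of the cytosolic ribosome and of the respiratory chain, the mitochondrial ribosomal protein genes had the median nearest to 0. Of 83 tested genes of the cytosolic ribosome 78 had a deposited log2 fold change above 0, with a median of 0.26, and 1 was called, higher in Lncenc1-high. Of 80 tested nuclear genes of the respiratory chain and ATP synthase 51 were above 0, with a median of 0.09. Here too 1 was called (1.25%), lower in Lncenc1-high, the direction of 1.02% of all genes tested. Both counts were near the background. The difference between these medians was not tested, and the libraries of Lncenc1-low differed in the cytosolic group: L2 stood at a median log2 ratio to the 4-library mean of -0.29, against 0.03 in L1. In the mitochondrial ribosomal group that ratio was -0.01 in L2 and 0.04 in L1.

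**Figure D5:**
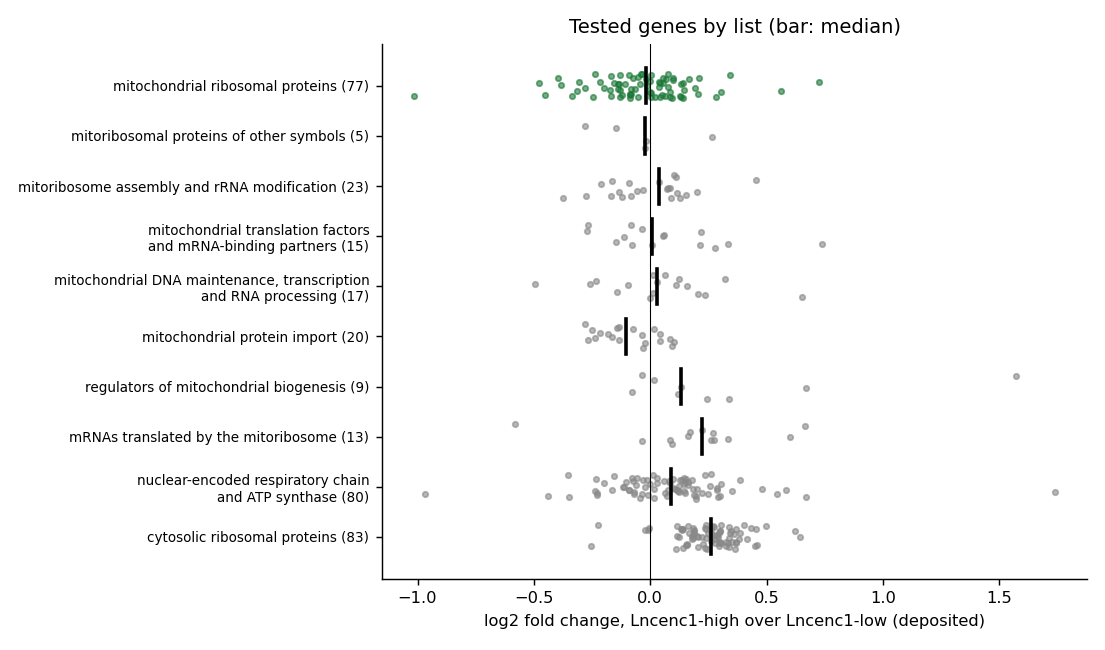
Deposited log2 fold changes (x axis, Lncenc1-high over Lncenc1-low) of tested genes by list (y axis, number of genes in parentheses); points are genes, bars are medians, and vertical scatter is for legibility. The 77 mitochondrial ribosomal protein genes centre on -0.02, cytosolic ribosomal protein genes on 0.26 and the mRNAs translated by the mitochondrial ribosome on 0.22.

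Genes that share a start region with a mitochondrial ribosomal protein gene gave no call, where 1.53% of all genes tested were called. With so few pairs that count says little. In the annotation 18 of the 77 genes have a protein-coding neighbour read away from them whose start is within 1000 bases, at a median distance of 82 bases. In 17 such pairs with both genes tested, deposited log2 fold changes had the same sign in 11, and those of the neighbours ran from -0.49 to 0.38. Mrpl49 and Fau, which codes for a protein of the cytosolic ribosome, start 59 bases apart and had deposited log2 fold changes of 0.19 ± 0.21 and 0.24 ± 0.19. Exons of 32 of the 77 genes overlap another gene's, 27 on the opposite and 7 on the same strand, and reads there may be uncertain. Mrps24 shares 226 exon bases on the same strand with Urgcp, which was called in the authors' deposited table with a log2 fold change of -1.41 ± 0.36 (DESeq2 adjusted p = 0.0120), while that of Mrps24 was 0.09.

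The libraries had 26981751, 11164995, 11320955 and 10752049 recovered reads (H1, H2, L1, L2), so H1 was the deepest. All 9 naive stem cell markers were present, with summed normalized reads of 73510 and 69468 in Lncenc1-high and 62613 and 58605 in Lncenc1-low libraries. All 9 had a deposited log2 fold change above 0, with a median of 0.31, and DESeq2 called 0 (1.53% of all genes tested). A deposited DESeq2 unadjusted p under 0.05 was seen for 2 of the 9 (22.2%, against 8.82% of all genes tested). In 8 of the 9 both Lncenc1-high libraries were above both others, against 20.6% of the tested genes with recovered reads. Primed epiblast markers summed to 2846 and 2764 against 3324 and 4497, but the high sum in L2 was Dnmt3b (4085 there), while Otx2, Zic2 and Pou3f1 were lowest in L2 and Fgf5 was at 0 in H2, L1 and L2. Primitive endoderm markers summed to 51.9 to 66.5, with Gata6 at 0 in H2. Of 7 fibroblast markers 6 were in the table, summed at 4387 and 4048 against 3752 and 3832. That sum was mostly Vim, whose deposited log2 fold change was 0.22, while those of the other 5 were below 0. Fbn1 had 140 and 110 normalized reads against 324 and 174 (deposited log2 fold change -0.99 ± 0.41, DESeq2 adjusted p = 0.320), Thy1 lay between 10.3 and 40.7 and Col1a1 and Col1a2 at or under 18.5 in every library, and Col3a1 was at 0 in H2 and L2. Markers of 2-cell-like cells summed to 10393, 5516, 14994 and 8565, with Tcstv1 and Tcstv3 at 0 in L2. The part of these differences in the results above was not tested.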

How the data were processed

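Ribosomal RNA was removed and libraries keep strand, per the labels' protocols. TopHat2, HTSeq, DESeq2 1.8.2 and the build mm9 are named in the submitters' processing notes (annotation and strand setting not given in the sources used here). Per the file headers, the deposited table holds a mean normalized read count per gene (a signal), a log2 fold change with a log2 standard error, a Wald statistic (a score), and a p-value with an adjusted p-value, all made by the authors. An adjusted p exists for 14070 of 19840 genes.

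The authors' deposited fold change and adjusted p form the main result, at a threshold of 0.05. The edgeR test planned for counts was not run, since the table has no column of counts. Each mean adds up 4 whole numbers of reads divided by size factors (1.95 for H1, 0.797 for H2, 0.811 for L1, 0.809 for L2), so the counts were solved for by lattice reduction. A solution was kept if refitting it gave the deposited fold change within 0.00001 (0.001 where it was the only one) and the next was at least 10 times worse. This gave 19823 genes (99.9%), all 77 members included; the other 17, with means of at least 2813, hold 11.2% of the summed means. The method was tested on simulated data. Solved counts served descriptions and alternatives. These were a negative binomial Wald fit with the dispersion that the deposited standard error implies, run without each library or with library totals, and limma voom 3.58.1 with TMM factors. Where a fit leaves 1 library in a group, each gene keeps this dispersion of its own, which was set by all 4 libraries. The spread in such a fit therefore still draws on the library left out. Python 3.11.15 and R 4.3.3 were used.

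Names, exon lengths and neighbours come from GENCODE M21 (GRCm38), with 19707 identifiers matched; gene coordinates are not printed because its build is not the authors'. Promoter windows and their coordinates are RefSeq's, GRCm38.p6.

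The members, gene lists and rules were chosen with earlier results of these data known. Named were genes with an adjusted or unadjusted p under 0.05, the 6 highest and 6 lowest log2 fold changes (means of at least 50), the 5 highest and 5 lowest means per kilobase, members of known special role, the gene of smallest p in each list, and Lncenc1. Others were chosen for position, or as stated.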

Additional observations from a re-analysis of the deposited data

How the results depend on the processing

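Of the 77 genes 1 was called by the authors' fit, with library totals in place of size factors, with all genes in the adjustment and at an adjusted p under 0.1, and it was Mrpl19 each time. Limma voom called 0, and the fits without 1 library called from 0 to 0. Calls over all genes were 215 as deposited, 6 in limma voom, 48 to 194 in the fits without 1 library and 178 to 301 in the other alternatives. The median log2 fold change, -0.0172 as deposited, was -0.0465 with library totals, where that of all genes was -0.0376, and ran from -0.0472 without H1 to 0.0229 without L1. It was -0.0122 in limma voom, -0.0015 for means of at least 500, -0.0159 without Mrps36 and -0.0198 with the proteins of other symbols. The 95% interval lay within 2-fold for 71 genes with library totals and for 61 to 65 genes without 1 library, where fewer libraries widen it. Signs turned for 9 named genes, none of them called. With library totals this was Mrps18a (-0.032). Without 1 library, log2 fold changes ran from -0.038 (L1 left out) to 0.65 for Dap3, -0.10 (H1) to 0.21 for Mrpl12, -0.029 (L1) to 0.31 for Mrpl24, -0.15 to 0.13 (L1; 0.022 for H1) for Mrpl48, -0.37 to 0.22 (L1) for Mrpl58, -0.17 (H1; -0.10 for L1) to 0.15 for Mrps18a, -0.21 to 0.054 (L1) for Mrps18b, -0.12 (H2) to 0.25 for Mrps18c and -0.057 (L2) to 0.27 for Mrps30. The cause was not tested. No paired analysis was possible because the table has no column per library and the libraries recovered from its means carry no replicate number, so which of H1 and H2 would pair with which of L1 and L2 is not known. Depth limits the least abundant genes most: the standard error was 0.54 for Mrps6, with the lowest mean.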
